A study of Homo sapiens with 3 samples.

Results

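HDAC1 summits on chromosome 20 were examined in HepG2, an established human liver tumour line in which this chromosome is known to be carried in extra copies. A summit is the single base at which a called peak of tagged DNA fragments was highest. All summits placed on chromosome 20 of the hg19 build were taken as members, with no use of their scores. They numbered 437 of 9476 in the control list (4.61%, exact 95% interval 4.20 to 5.05) and 502 of 11553 in the list from cells given H89 (4.35%, interval 3.98 to 4.73). The copy number of the chromosome was not measured in the data used here, so the extra copies are background knowledge and not a result.

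HDAC1 is a class I histone deacetylase that works inside corepressor complexes and removes acetyl groups from histone tails. It is found at repressed genes and also at active promoters and enhancers, where acetylation is added and removed continually. H89 is a small-molecule inhibitor of PKA, the kinase that responds to cyclic AMP and, in hepatocytes, relays the fasting signal of glucagon. Chromosome 20 carries several genes central to liver identity and metabolism, among them HNF4A (band 20q13.12), a nuclear receptor of hepatocyte differentiation, FOXA2 (20p11.21), a pioneer factor of the endoderm, CEBPB (20q13.13), a leucine zipper factor of the acute-phase response, and PCK1 (20q13.31), the rate-limiting enzyme of gluconeogenesis. GNAS (20q13.32) encodes the G protein subunit that activates adenylyl cyclase upstream of PKA.

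The series holds 3 libraries made by CUT&Tag, in which an antibody tethers a transposase that cuts and tags nearby DNA. Wild-type HepG2 cells without H89 gave the control library, wild-type HepG2 cells with H89 gave the treated library, and an IgG library came from cells without H89 and was not analysed here. Neither the dose nor the duration of H89 is stated in the labels, and the antibody target is known from the series title alone. Each condition has 1 library and read depth is unknown, so no difference between them was tested, no replicate spread exists, and all intervals are exact (Clopper-Pearson) 95% intervals that cover counting error only. The lists share most of their sites, whereas the ratio intervals take them as independent. Genes are named for the band they lie in, as background. No summit was assigned to a gene, since the gene table at hand is on another build, and no sequence is shown for the same reason.

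Chromosome 20 was among the autosomes most densely covered by HDAC1 summits. It held 6.93 summits per Mb in the control list and 7.97 per Mb with H89, over a length of 63.0 Mb. The other 21 autosomes together held 3.06 and 3.72 per Mb. In the control list its density ranked 3 of 22, below chromosome 19 (11.3 per Mb) and chromosome 17 (8.82 per Mb). With H89 it ranked 4, with chromosome 16 (8.02 per Mb) just above it. Chromosomes 2, 14, 16 and 17 are also known to be carried in extra copies in HepG2. They held, in the control list, 3.12, 3.11, 6.84 and 8.82 per Mb, 4.65 together, so chromosome 20 was close to chromosome 16, below chromosome 17 and above chromosomes 2 and 14. Chromosome 20 had 1.15 times as many summits with H89 as in the control (interval 1.01 to 1.31), rank 21 of 22 among the autosomes, and 1.22 (1.18 to 1.25) on the others pooled. The intervals overlap.

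**Figure D1:**
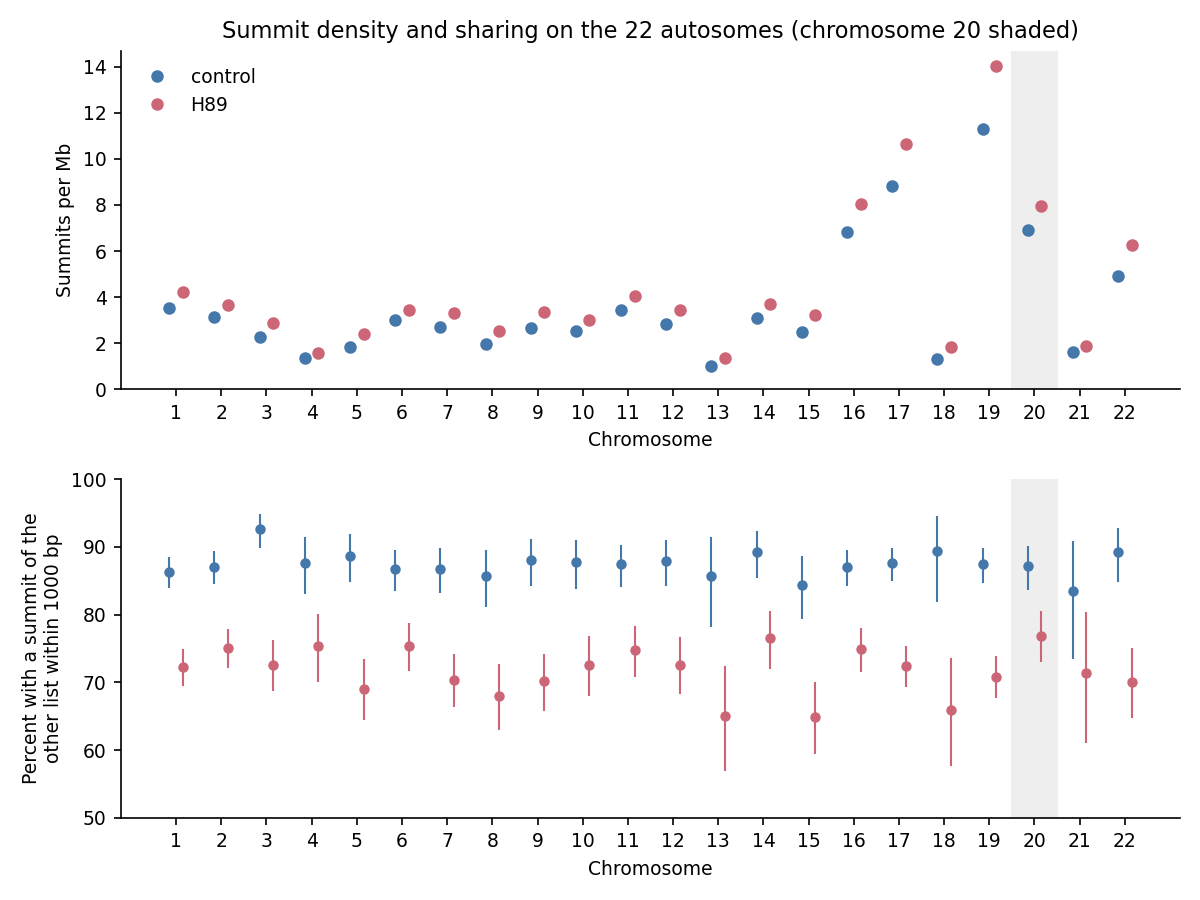
Upper panel, HDAC1 summits per Mb of each autosome in the control and H89 lists; lower panel, percent of each list's summits with a summit of the other list within 1000 bp, with exact 95% intervals as bars (the axis starts at 50%). Chromosome 20, shaded, held 6.93 and 7.97 summits per Mb, and 87.2% of its control and 76.9% of its H89 summits were shared.

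The long arm carried most of the HDAC1 summits. It makes up 56.4% of the chromosome and held 320 control summits (73.2%, interval 68.8 to 77.3) and 375 H89 summits (74.7%, interval 70.7 to 78.4). The short arm held 117 and 127. Density was 9.01 per Mb on the long arm and 4.25 per Mb on the short arm in the control list, a long to short ratio of 2.12 (1.71 to 2.64). With H89 the densities were 10.6 and 4.62 per Mb, a ratio of 2.29 (1.86 to 2.82). Among the 17 autosomes that are not acrocentric, chromosome 20 had the highest such ratio in both lists, with chromosome 5 next at 2.04 and 1.995. The difference between the arms was also present within one staining class. In Giemsa-negative bands, which stain palely and are known to be gene-rich, density in the control list was 12.95 per Mb on the long arm and 6.19 per Mb on the short arm, and with H89 it was 14.98 and 6.67 per Mb. Giemsa-negative bands of the other autosomes held 4.73 and 5.78 per Mb. In the dark bands of the 75% grey class, the arms were closer, at 3.23 and 2.32 per Mb in the control list. That class held 1.43 per Mb on the other autosomes.

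Summits lay mainly in 6 bands of the long arm and in the terminal band of the short arm. Band 20q13.33, at the tip of the long arm, held the most, with 63 control and 80 H89 summits (13.6 and 17.3 per Mb). Band 20q13.13, the band of CEBPB and of the phosphatase gene PTPN1, held 58 in each list (17.1 per Mb), the highest control density of the chromosome. The HNF4A band 20q13.12, which also holds the cell cycle factor gene MYBL2, had 49 control and 63 H89 summits. The 3 bands next to the centromere on the long arm followed. Band 20q11.21, with the survival gene BCL2L1 and the DNA methyltransferase gene DNMT3B, held 42 and 44 summits, 20q11.22, with the cell cycle factor gene E2F1, held 29 and 34, and 20q11.23, with the kinase gene SRC, held 38 and 48. On the short arm the terminal band 20p13 led with 48 and 53, and the FOXA2 band 20p11.21 held 25 and 27.

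The remaining bands were sparse. Band 20q13.2, with the kinase gene AURKA and ZNF217, a transcription factor gene often amplified in tumours,, held 23 and 22 summits on 5.2 Mb. Band 20q12, with the topoisomerase gene TOP1, held 7 and 11. The GNAS band 20q13.32 held 7 and 8, and the PCK1 band 20q13.31 held 3 and 4. Bands 20p12.3, 20p12.2, 20p12.1 and 20p11.23 held 6 to 12 control and 5 to 15 H89 summits each. Band 20q13.11, the shortest at 0.4 Mb, held 1 and 3, and the centromeric band 20p11.1 held 3 and 5. Bands 20p11.22 and 20q11.1 had no summit in either list. More summits were listed with H89 in 14 of the 20 bands, fewer in 3 (20p12.3, 20p12.2 and 20q13.2) and the same number in 1 occupied band (20q13.13). In the 9 bands with at least 40 summits in both lists together, the ratio ranged from 0.957 (20q13.2, interval 0.508 to 1.79) to 1.29 (20q13.12, interval 0.871 to 1.91). In none of the 9 did the interval exclude 1.

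**Figure D2:**
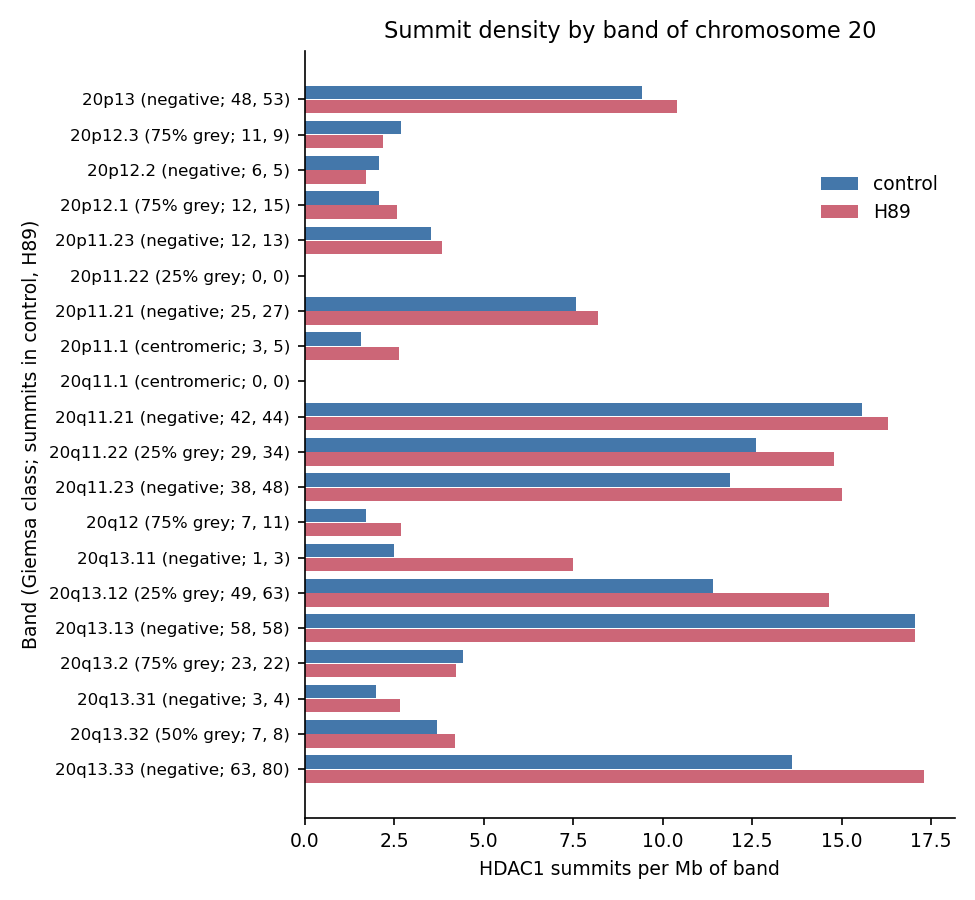
HDAC1 summits per Mb in each band of chromosome 20, from the tip of the short arm (top) to the tip of the long arm (bottom), for the control and H89 lists; labels give the Giemsa class and the number of summits in each list. The densest bands are 20q13.13, 20q11.21 and 20q13.33, and 20p11.22 and 20q11.1 are empty.

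Within these bands the summits were uneven at the scale of 1 Mb. Of 64 windows of 1 Mb, 12 held no summit in either list, and the 10 fullest held 45.5% of control and 44.2% of H89 summits. The fullest window, from 62000001 to 63000000 in 20q13.33, held 36 control and 42 H89 summits. The second, from 48000001 to 49000000 in 20q13.13, held 29 and 33, and the third, from 30000001 to 31000000 in 20q11.21, held 23 and 29. Both lists followed the same profile. Across the 64 windows of these libraries, counts in the lists had a Pearson r of 0.978 and a Spearman rho of 0.970, given as a description, since the windows share the 2 libraries. H89 counts were higher in 31 windows, equal in 15 occupied ones and lower in 6. The largest deficit was in the window from 31000001 to 32000000 in 20q11.21, with 17 control and 13 H89 summits. It lies next to one of the largest excesses, the 23 and 29 summits of the preceding window, so the near-equal totals of band 20q11.21 combine opposite differences. These windows were picked after their values were seen, their counts are small, and no interval was computed for windows.

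HDAC1 summits on chromosome 20 were closely spaced. The median gap between neighbours was 31.5 kb in the control list and 26.4 kb with H89, the latter the shortest of the 22 autosomes, just under the 26.8 kb of chromosome 17. In the control list 127 summits (29.1%, interval 24.8 to 33.6) had another within 5 kb, and with H89 163 did (32.5%, interval 28.4 to 36.8). On the other autosomes pooled the shares were 20.8% and 24.0%, but chromosome 17 had higher ones (33.8% and 35.5%) and chromosome 16 similar ones (28.8% and 31.0%). The control summits formed 57 such runs, the largest of 4 summits, and the H89 summits 71 runs, the largest of 6. That run of 6 spanned 12.9 kb of 20q11.23, from 35962345 to 35975276, and its scores were all low, from 2.37 to 4.24. In the control list 3 of the 4 runs of 4 summits lay in 20q13.13, starting at 48227537, 48804303 and 48884080. The longest stretch without a summit was 3.62 Mb in both lists, from 20p11.1 across the centromere to 20q11.21. The next longest shared stretches, 2.45 Mb from 20p12.2 into 20p12.1 and 2.24 Mb from 20q13.32 into 20q13.33, were on the arms.

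Most control sites on chromosome 20 were called again with H89, and most H89 sites had a control summit nearby. A partner within 1000 bp in the H89 list was found for 381 control summits (87.2%, interval 83.7 to 90.2), against 87.6% over all control summits of the series. In the other direction, 386 H89 summits had a partner in the control list (76.9%, interval 73.0 to 80.5), against 72.2% over all H89 summits. The latter share was the highest of the 22 autosomes, followed by chromosomes 14 (76.5%, interval 72.0 to 80.6), 6 (75.4%), 4 (75.3%) and 2 (75.1%). It was 72.2% (71.3 to 73.1) on the other autosomes pooled, with overlapping intervals. Whether chromosome 20 differs was not tested, because the summits of 1 library are not replicates. That left 56 control and 116 H89 summits without a partner. The short arm had 14 and 25 of these, and the long arm 42 and 91.

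Sharing depended on the score, which is read here as the −log10 of an unadjusted p-value. Control summits of score 2 up to 3 were shared in 57 of 83 cases (68.7%, interval 57.6 to 78.4), against 75.2% (73.1 to 77.1) on the other autosomes. Between 3 and 4 they were shared in 76.6% (67.6 to 84.1), against 80.2% (78.5 to 81.8), so these low classes were lower on chromosome 20, with overlapping intervals. Between 4 and 5 the control share was 98.5% (91.96 to 99.96) and elsewhere 94.2% (92.4 to 95.6), and every one of the 44, 34 and 5 in the classes starting at 7, 10 and 20 was shared. H89 summits of score 2 up to 3 were shared in 42 of 100 cases, against 46.5% elsewhere. Between 3 and 4 they were shared in 76 of 109 cases (69.7%, interval 60.2 to 78.2), whereas on the other autosomes that class was shared in 55.9% (53.9 to 57.8). That was the largest difference among the classes and is singled out after the values were seen. Between 5 and 7 the shares were 90.8% (83.8 to 95.5) on chromosome 20 and 83.5% (81.8 to 85.0) elsewhere. In the lowest class, and from 7 up, the H89 shares on chromosome 20 lay within 5 percentage points of those elsewhere.

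**Figure D3:**
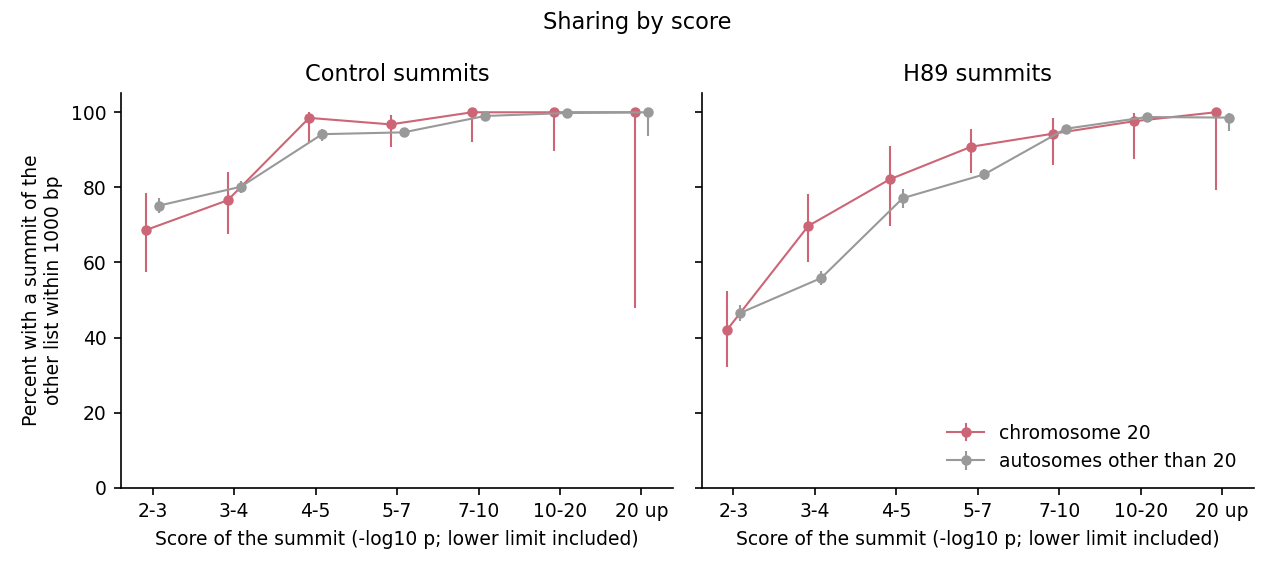
Percent of control summits (left) and H89 summits (right) with a summit of the other list within 1000 bp, by score class, on chromosome 20 and on the other autosomes, with exact 95% intervals as bars. For H89 summits scoring 3 up to 4, the share was 69.7% on chromosome 20 and 55.9% elsewhere. That was the largest difference among the classes and is named after the values were seen. For control summits of that class the share was 76.6% on chromosome 20 and 80.2% elsewhere.

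Sharing in single bands did not stand apart from that of the series at these numbers. In each of the 18 bands with summits, the interval of the shared percentage included 87.6% for the control list and 72.2% for the H89 list. In 20q13.33, 22 of 80 H89 summits had no partner, and 58 were shared (72.5%, interval 61.4 to 81.9). In 20q13.12, 18 of 63 H89 summits had no partner (71.4% shared, interval 58.7 to 82.1). In 20q13.13, 11 of 58 had none (81.0% shared, interval 68.6 to 90.1), and 12 of its 58 control summits had none. These bands were chosen after their values were seen.

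Summits without a partner scored low. Control summits without a partner had a median score of 3.45 and a highest score of 5.498, against a median of 4.77 for those with a partner. H89 summits without a partner had a median of 3.01 and 1 of the 116 scored 10 or more, against a median of 5.49 and 57 of 386 for those with a partner. Of summits scoring 10 or more on chromosome 20, 57 of 58 with H89 and 39 of 39 in the control list had a partner. On the other autosomes 1003 of 1016 and 542 of 543 did, so high-scoring summits without a partner were rare there too. The highest H89 summit without a partner lay in 20q11.23 at position 37376966. Its score was 11.3, with no control summit nearer than 162 kb. The second, in 20q11.21 at 30196418, scored 9.31 but lay 1.14 kb from a control summit of score 12.5, just outside the pairing distance. The other 3 of the 5 highest, in 20p13 (622761) and 20q13.33 (59864914 and 62869785), each scored 7.66 and lay between 2.12 and 6.77 kb from a control summit. In the control list 3 summits without a partner scored 5.498, in 20p13 (3761970) and in 20q13.33 (62114686 and 62118386), between 13.2 and 37.7 kb from an H89 summit. The latter 2 belong to a single run of 3 control summits over 7.18 kb of which none had an H89 partner. The next, in 20q13.2 at 50361156, scored 4.77, and the fifth, in 20p11.21 at 25388389, scored 3.97 and lay 97.8 kb from an H89 summit.

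High scores were somewhat more frequent on chromosome 20 than on the other autosomes pooled, with intervals that overlap at a score of 10 or more and do not overlap at 20 or more with H89. Pooled, the other chromosomes known as gained had similar shares at 10 or more, but that of chromosome 17 in the control list was lower. In the control list, 39 summits scored 10 or more (8.92%, interval 6.42 to 11.998), against 6.49% of all control summits and 6.30% (5.79 to 6.83) of those on the other autosomes. With H89, 58 did (11.6%, interval 8.89 to 14.7), against 9.89% of all H89 summits and 9.69% (9.13 to 10.3) on the other autosomes. Chromosomes 2, 14, 16 and 17 together had 7.99% in the control list and 11.9% with H89, and chromosome 14 exceeded chromosome 20 in both, at 11.4% and 12.9%. In the control list chromosomes 2 (8.17%), 16 (8.09%) and 17 (6.15%) were below chromosome 20. With H89 chromosomes 2 (12.2%) and 16 (12.3%) were also above it, and chromosome 17 (10.9%) was below. A score of 20 or more was reached by 5 control summits (1.14%, interval 0.373 to 2.65) and 16 H89 summits (3.19%, interval 1.83 to 5.12). The other autosomes had 0.661% (0.501 to 0.856) and 1.35% (1.13 to 1.58). The H89 share was the highest among the autosomes, but chromosomes 14 (2.53%), 16 (2.48%) and 2 (2.25%) were close and lay within its interval. Chromosome 17 had 1.50%, and chromosomes 2, 14, 16 and 17 together 2.12%. In the control list chromosomes 14 (2.40%) and 21 (1.27%) were higher. A score of 5 or more was reached by 176 control summits (40.3%, against 41.9% of all control summits) and 237 H89 summits (47.2%, against 46.2% of all H89 summits). Median scores were 4.77 and 4.76. The H89 to control ratio was 1.35 (1.10 to 1.65) at 5 or more and 1.49 (0.974 to 2.29) at 10 or more. On the other autosomes it was 1.33 (1.28 to 1.39) and 1.87 (1.68 to 2.08). The arms had nearly equal shares of control summits scoring 10 or more, 10 of 117 on the short arm (8.55%, interval 4.17 to 15.2) and 29 of 320 on the long arm (9.06%, interval 6.15 to 12.8). With H89 the shares were 19 of 127 (14.96%, interval 9.25 to 22.4) and 39 of 375 (10.4%, interval 7.50 to 13.9), with overlapping intervals.

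The 374 one-to-one pairs, mutually nearest summits within 1000 bp, lay close together. Their median offset was 50.5 bp, 269 (71.9%) were within 100 bp, 11 fell on the same base and 8 were more than 500 bp apart. The H89 score was higher by more than 0.1 in 180 pairs (48.1%, interval 43.0 to 53.3), against 50.2% of all pairs of the series. The control score was higher by more than 0.1 in 58 (15.5%, interval 11.99 to 19.6), against 14.5% of all pairs. Scores in the other 136 pairs were within 0.1. These shares are near those of the series as a whole. Where the mean of both scores reached 10, in 46 pairs, H89 was favoured in 30 (65.2%, interval 49.8 to 78.6) and the control in 9 (19.6%, interval 9.36 to 33.9). On the other autosomes 75.6% (72.4 to 78.5) of 794 such pairs favoured H89 and 10.96% (8.87 to 13.3) the control. The chromosome 20 share in favour of H89 was lower there, with overlapping intervals. Among bands, named after their values were seen, 20q13.33 had 31 of 55 pairs in favour of H89 (56.4%) and 10 in favour of the control. Band 20q13.12 had 21 of 45 (46.7%) and 3, and 20p13 had 20 of 42 (47.6%) and 6. In 20q11.22 there were 16 of 26 (61.5%) and 2. The shares of 20q13.12 and 20p13 in favour of H89 were thus below the 50.2% of the series. Band 20q13.13 had 15 and 13 of 45 pairs, the smallest excess in favour of H89 among the 9 bands with at least 40 summits. Band 20p12.1 had 3 and 4 of 11.

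**Figure D4:**
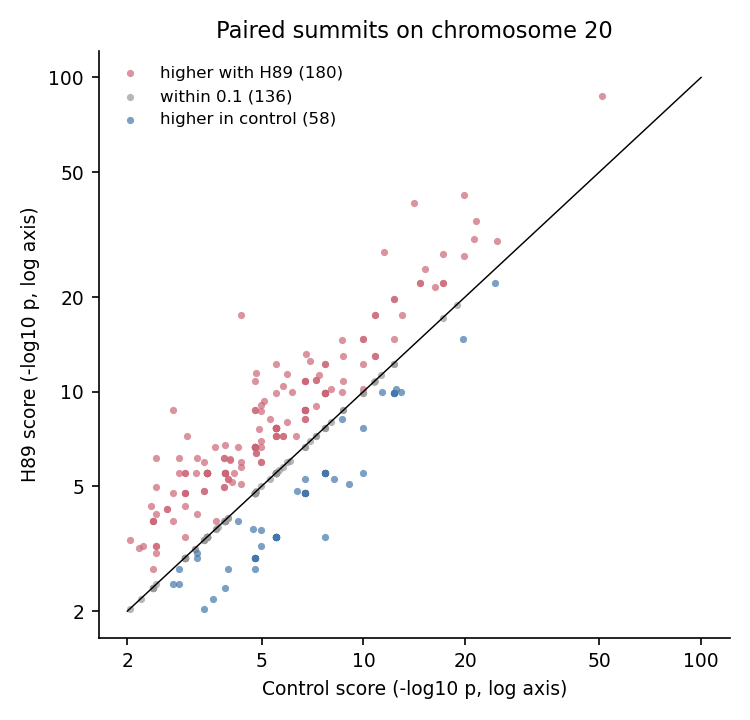
Control score against H89 score for the 374 paired summits of chromosome 20 (both log axes), with the line of equality. Points above the line score higher with H89 (180 by more than 0.1) and points below score higher in the control (58); the point at the upper right is the 20q13.33 site with scores 50.8 and 87.5.

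The strongest HDAC1 sites of chromosome 20 were spread over 8 bands of both arms, and 9 of the 10 pairs with the highest mean score scored higher with H89. The H89 score enters that ranking and so favours such sites. At a mean score of 20 or more, 8 of 9 pairs on chromosome 20 scored higher with H89 (88.9%, interval 51.8 to 99.7). On the other autosomes 77 of 93 such pairs did (82.8%, interval 73.6 to 89.8), a similar share. The highest pair of chromosome 20, in 20q13.33 at 62573492 in the control and 62573505 with H89, scored 50.8 and 87.5. These scores exceeded those of any other site of the chromosome in either list. A second 20q13.33 site, at 61592572 and 61592555, scored 14.1 in the control, rank 18 in that list, and 39.8 with H89, rank 3. In 20p13, the site at 328690 and 328594 scored 19.8 and 42.2. These were the 3 largest score differences. In 20q11.22, a site at 34330357 and 34330356 scored 21.6 and 34.9, and one at 32581258 and 32581243 scored 21.2 and 30.5. The 20p12.3 site at 5107436 and 5107417 lies just inside the border with 20p13, and scored 24.9 and 30.2. The 20q13.12 site at 42839518 and 42839448 scored 19.8 and 27.0. The 20q13.32 site at 56884590 and 56884601 scored 17.2 and 27.5, and the 20p11.23 site, at base 20033267 in both lists, scored 15.2 and 24.6.

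The exception among the 10 was in 20q13.13, where the site at 48922821 and 48922855 scored 24.6 in the control, rank 3, and 22.2 with H89, rank 15. The same band held the fourth largest difference in the other direction, at 47894887 and 47894855, where the scores were 11.5 and 27.9. The 5 pairs with the largest difference in favour of the control differed by less. In 20q11.23 the site at 34771110 and 34771097 had a score of 19.7 without and 14.7 with H89. The next, in 20p11.21 at 25013530 and 25013568, scored 9.94 and 5.49. In 20q13.13 the sites at 48895567 and 48532187 (control positions) had control scores of 7.67 and 12.9 and H89 scores of 3.44 and 9.97. In 20q13.33 the site at 60877657 scored 9.08 and 5.08.

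The scores give a view of how few counts stand behind many sites. Many were repeated values that equal −log10 Poisson upper tail probabilities of whole counts at a fixed background mean, 0.0269 in the control and 0.0271 with H89 for the commonest, and 0.0473 and 0.0477 for the second. Within a tolerance of 0.001, 256 of the 437 control summits (58.6%) and 290 of the 502 H89 summits (57.8%) lay on such steps, and the step then gives a count. This reading rests on the values alone, and the counts may be overlapping fragments rather than reads. A count of 2 or 3 stood behind 180 of the 256 control summits and 196 of the 290 H89 summits. The highest count among summits on these steps was 12 in the control and 19 with H89. Counts behind the summits off the steps are not known. Scores on the steps of the commonest mean were less frequent on chromosome 20 than elsewhere. They made up 34.6% (30.1 to 39.2) of its control and 33.5% (29.3 to 37.8) of its H89 summits, against 42.0% (40.9 to 43.0) and 41.8% (40.8 to 42.7) on the other autosomes. Chromosomes 16, 17 and 19, which are also dense in summits, had 26.2%, 28.6% and 25.9% in the control list.

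Counts could be compared in 210 of the 374 pairs, those whose scores lay on the steps of the same background mean in both lists. The count was equal in 91 (43.3%, interval 36.5 to 50.3), greater with H89 in 83 (39.5%, interval 32.9 to 46.5) and smaller in 36 (17.1%, interval 12.3 to 22.9). In 180 of the 210 the counts differed by no more than 1. On the other autosomes the count was higher with H89 in 45.0% (43.5 to 46.4) of 4523 such pairs and higher in the control in 13.02% (12.1 to 14.04). The counts on chromosome 20 summed to 754 in the control and 845 with H89, a ratio of 1.12. Among the 210 pairs the largest count difference was at the 20p13 site at 328690, with 10 control and 19 H89 counts. That is a ratio of 1.90 (interval 0.841 to 4.57). The 20p11.23 site at 20033267 and the 20q13.32 site at 56884590 each had 8 and 12 counts, a ratio of 1.50 (0.564 to 4.23). The largest deficit was 2 counts, as at the 20q11.23 site at 34771110, with 9 and 7 counts. In none of the 210 pairs did the counting interval of the ratio exclude 1. No difference at a single one of these sites was therefore detected at these counts, and the smallest detectable difference was not computed. The highest site, in 20q13.33, is not among the 210, since its scores lay on neither set of steps. Also absent are the sites at 61592572 in 20q13.33, 47894887 in 20q13.13 and 34330357 in 20q11.22 (control positions). All of these are among the 5 pairs with the largest score difference in favour of H89. The counts therefore do not cover most of the largest score differences.

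**Figure D5:**
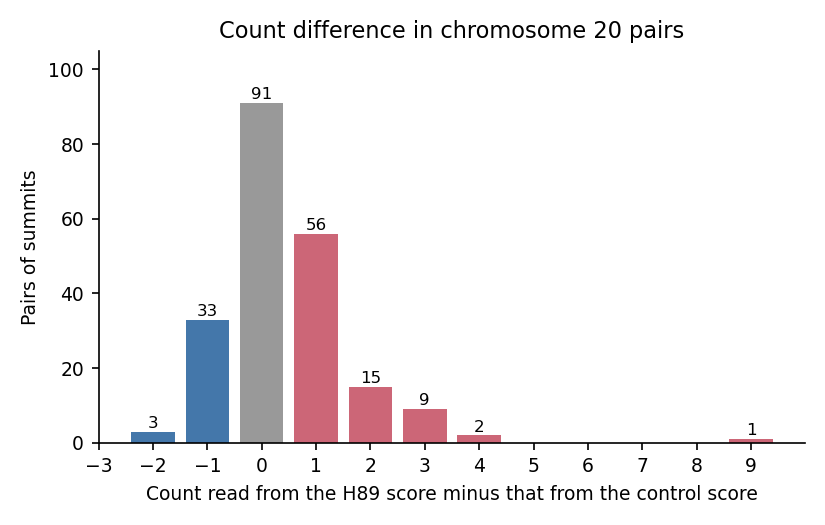
Difference between the count read from the H89 score and that read from the control score, for the 210 chromosome 20 pairs on the same background mean in both lists; bar labels give the number of pairs. Counts were equal in 91 pairs, greater with H89 in 83 and smaller in 36.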

How the data were processed

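The authors deposited 2 headerless summit lists, 1 for each HDAC1 library, giving for each peak a single base, a name and a score; per the submitters' processing notes, Bowtie 0.12.2 and hg19 were used. How peaks were called and reads filtered is not given in the sources used. Peak names matched the sample titles and assigned the lists. From its values, the authors' score was taken to be a −log10 p-value. Positions are 1-based. Bands came from the hg19 table of circlize 0.4.16, whose 24 chromosome lengths equal those in GenomeInfoDb 1.38.1 (R 4.3.3). Partners were summits within 1000 bp, pairs mutually nearest ones, and score differences up to 0.1 ties. Named sites are the 10 pairs with the highest mean score, the 5 with the largest difference each way, and the 5 highest summits without a partner in each list. Background means were fitted to the commonest score between 5 and 6, and the commonest remaining one between 4 and 5, each taken as a count of 3. The members and the choices were made with earlier results of these data known. The count reading of pairs and the comparison of arms within staining classes were added after values had been seen. Functions were tested on simulated data. Depth is unknown. Computation used Python 3.11.15 (scipy 1.17.1, pandas 2.3.3, numpy 2.4.6), and plots matplotlib 3.10.9.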

Additional observations from a re-analysis of the deposited data

How the results depend on the processing

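The H89 to control ratio on chromosome 20 was 1.35 at a score of 5 or more and 1.49 at 10 or more, and 1.15 with summits within 500 bp merged. Within 100 bp, on the identical base and among the 218 top-scoring summits of each list, 61.6%, 2.52% and 75.7% of control summits were shared. Within 100 bp, within 2000 bp and on the identical base, 53.6%, 80.7% and 2.19% of H89 summits were. Pairs favoured H89 in 60.9% at a mean score of 5 or more and 65.2% at 10 or more, with 46 pairs left, against 58.5% and 75.6% on the other autosomes. The long to short arm density ratio was 1.95 to 2.24 in the control under every alternative run. With H89, summits scoring 10 or more gave 1.59 (interval 0.896 to 2.91), from 39 and 19 summits. Chromosome 20 held 6.34% of control and 5.07% of H89 summits scoring 10 or more. The causes of these differences were not tested. The remaining settings tried stayed within the counting interval of the value reported. No paired analysis was possible because each condition has a single library. Unknown depth and low counts limit all values.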
